A study of Homo sapiens with 12 samples.

Results

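The genes described here were listed as methyltransferases that use S-adenosylmethionine (SAM) as methyl donor and act on targets other than lysine 9 of histone H3 or DNA. They were chosen by name, from a list of 39 symbols, and a gene was described where at least 4 of 12 libraries held a CPM (count scaled to library size) of at least 1. This left 38 of the 39, and all 38 reached that level in 12 of 12 libraries and were tested among 12741 of 18969 listed genes. The remaining gene, NNMT, the nicotinamide methyltransferase, had a rounded count of 1, 2 and 3 in the libraries 0 h 2, 0 h 3 and UNC0642 recovery 4 and of 0 in the others, where a limit of 3 counts allows at most 0.149 to 0.205 CPM (counting error only).

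The cells were HCT116, a long-established line from a human colorectal carcinoma, grown in RPMI-1640 with serum and sequenced as 3 groups of 4 libraries. For the groups called DMSO recovery and UNC0642 recovery, the labels describe 24 h without methionine, with the vehicle or with UNC0642, and a further 24 h with methionine and without the inhibitor. UNC0642 inhibits EHMT1 and EHMT2, which are among the enzymes that methylate lysine 9 of histone H3. The dose of UNC0642 is not given in the sources used here. The group called 0 h precedes recovery, but the labels do not say whether it was taken before or after the restriction, so it differs from the recovery groups in culture time and possibly in medium. The labels do not say whether the 4 libraries of a group came from separate cultures, and p-values therefore reflect only the spread among these libraries, which may be technical.

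Methionine is the precursor of SAM, and each methyl transfer turns SAM into S-adenosylhomocysteine, which inhibits many methyltransferases until it is hydrolysed. SET-domain enzymes methylate lysines, mostly of histones, and many work only inside multi-subunit complexes; the protein arginine methyltransferases modify histones, RNA-binding proteins and splicing factors. Others methylate RNA, small metabolites or carboxyl groups of proteins. RNA levels say nothing of enzyme activity or of the marks themselves, which were not measured.

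Total expected counts were 14658082 to 20179847 per library. The libraries fell into 5 with a short and 7 with a long difference between a gene's length and its effective length (101 to 106 against 120 to 127 bases), with both kinds in every group. Epithelial markers summed to 4920 to 5040 CPM at 0 h and to 5540 to 5770 CPM after recovery, with KRT8 as the largest part. EPCAM went the other way, with means of 333 CPM at 0 h, 310 CPM after DMSO and 294 CPM after UNC0642 recovery. The other epithelial markers (CDH1, KRT8, KRT18 and KRT19) rose. Blood markers (4 genes) summed to 1.75 to 5.57 CPM at 0 h, 1.11 to 1.8 CPM after DMSO recovery and 1.29 to 2.3 CPM after UNC0642 recovery, and PTPRC was at 0 in every 0 h library. Endothelial markers (3 genes) stayed at or below 0.956 CPM. Fibroblast markers (4 genes) summed to 19.8 to 38.8 CPM at 0 h and 25.1 to 34.2 CPM after recovery, mostly COL1A1, and COL1A2 reached 6.81 CPM at 0 h and was above 1 CPM in 6 libraries. The part of these traces in the results below was not tested, beyond leaving those 6 libraries out. That leaves 1 library at 0 h, 3 of DMSO and 2 of UNC0642 recovery, so the spread at 0 h is borrowed from the other groups and a call can be lost at an unchanged fold.

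PRMT1, which forms most of the asymmetric dimethylarginine of human cells, was the most abundant of the 38 genes per length, at 387 ± 15.8 FPKM (SD, n = 4) at 0 h. PRMT5, the main enzyme of symmetric dimethylarginine, followed at 134 ± 6.11 FPKM, and GAMT, which makes creatine from guanidinoacetate, at 71.9 ± 2.51 FPKM. CARM1 (67.2 ± 1.09 FPKM) and PCMT1 (65.6 ± 1.48 FPKM) came next, and their libraries overlapped. EZH2 (43.6 ± 0.556 FPKM) and WHSC1 (43.3 ± 0.365 FPKM) could not be ordered either. At the other end stood EZH1 at 4.98 FPKM, SUV420H2 at 4.37 FPKM and MLL3 at 2.75 FPKM. PRMT1, PRMT5 and GAMT kept the first 3 places after DMSO and after UNC0642 recovery. The median of the 38 genes at 0 h was 16.7 FPKM, beside 9.73 FPKM for all tested genes, and 29 of the 38 lay above the latter.

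**Figure D1:**
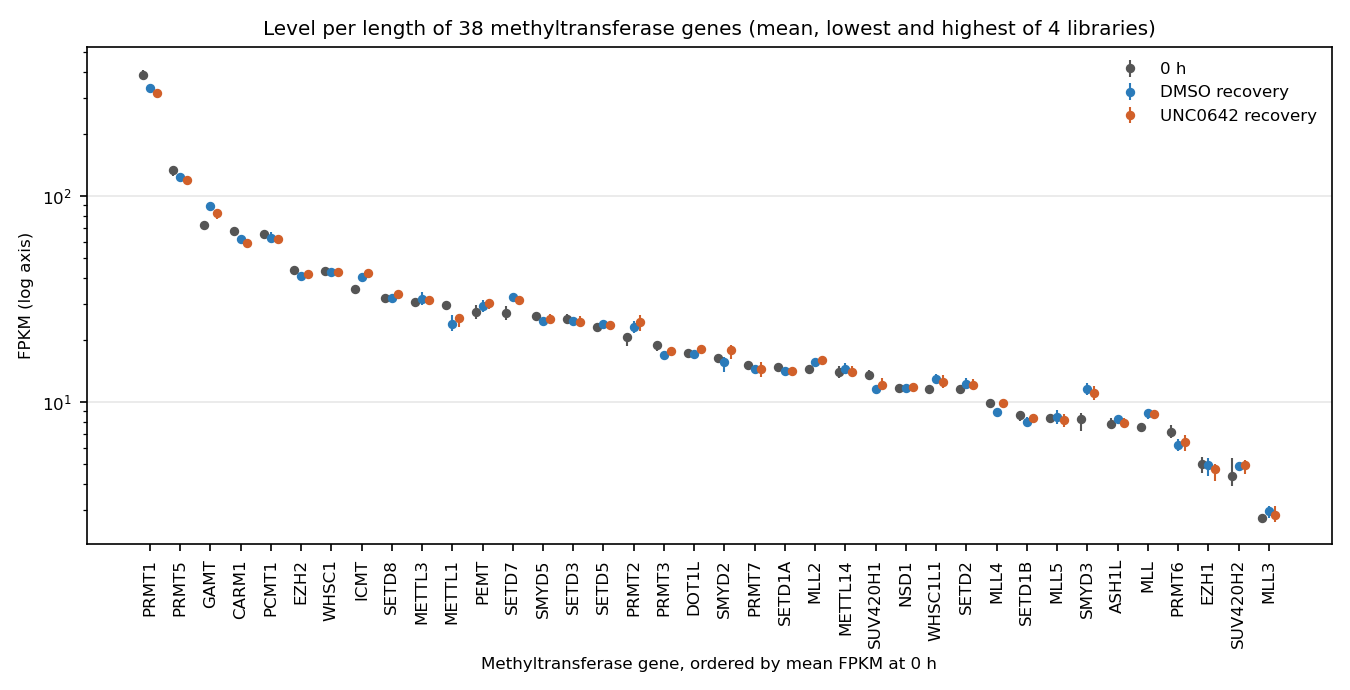
FPKM on a log axis for each of the 38 genes, ordered by the mean at 0 h; points are group means and lines run from the lowest to the highest of 4 libraries. PRMT1 lies apart from all others in each group (387 FPKM at 0 h), and MLL3 is the lowest at 2.75 FPKM.

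Between 0 h and DMSO recovery, 5 of the 38 genes rose (SMYD3, GAMT, SETD7, MLL and ICMT) and 14 fell, led by METTL1, SUV420H1, PRMT1 and PRMT6. A gene was called at an adjusted p under 0.05 in edgeR's quasi-likelihood test with Benjamini-Hochberg adjustment over all tested genes. These 19 calls are 50% of the 38 genes, beside 44.1% of all tested genes, of which 22.4% were called higher and 21.7% lower. The changes were small: log2 fold changes ran from -0.37 to 0.41, 5 of the called genes passed 1.2-fold and 0 passed 1.5-fold. Over all tested genes, 18.9% were called past 1.2-fold and 4.93% past 1.5-fold. The median log2 fold change of the 38 was -0.06, beside 0.01 for all tested genes. In 20 of the 38 the 2 groups did not overlap (5 higher, 15 lower after recovery), beside a share of 38.3% among all tested genes.

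UNC0642 recovery was set against the same 4 libraries of 0 h, so its differences are not independent of those after DMSO recovery. Here 7 of the 38 rose (the 5 above, PRMT2 and MLL2) and 13 fell, 52.6% together, beside 47% of all tested genes (23.4% higher, 23.6% lower). The log2 fold changes ran from -0.35 (PRMT1) to 0.37 (SMYD3), with a median of -0.06 beside 0.01 for all genes. Of the called genes, 3 passed 1.2-fold and 0 passed 1.5-fold, beside 20.8% and 5.87% of all tested genes. Groups did not overlap for 16 of the 38 (4 higher, 12 lower), beside a share of 40.2% among all tested genes. In both comparisons the share of the 38 called in either direction lay near the share of all genes. In this fit more of the 38 were called lower than higher, while over all tested genes the 2 directions were about even. That surplus depended on the scaling. With library totals alone, 8 rose and 10 fell after DMSO recovery, and 7 rose and 5 fell after UNC0642 recovery. Of all calls, 67.5% were then higher in both comparisons. The median log2 fold changes were then -0.01 and 0 for the 38, beside 0.06 and 0.07 for all tested genes. In bulk RNA, fewer cells with a transcript and less of it per cell cannot be told apart.

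UNC0642 and DMSO recovery, which differ by the inhibitor during the restriction, differed in few of these genes: 1 of 38 (2.63%), MLL4, was called higher and 0 were called lower, beside 4.58% of all tested genes (2.06% higher, 2.53% lower). At an unadjusted p under 0.05, 6 of the 38 differed (4 higher, 2 lower), beside 17.2% of all tested genes, and DESeq2 called 1. The groups did not overlap for 5 of the 38 (4 higher, 1 lower), beside a share of 10.5% among all tested genes. Over the 37 genes that were not called, the 95% intervals of the log2 difference, each taken alone, lay between -0.20 and 0.31.

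**Figure D2:**
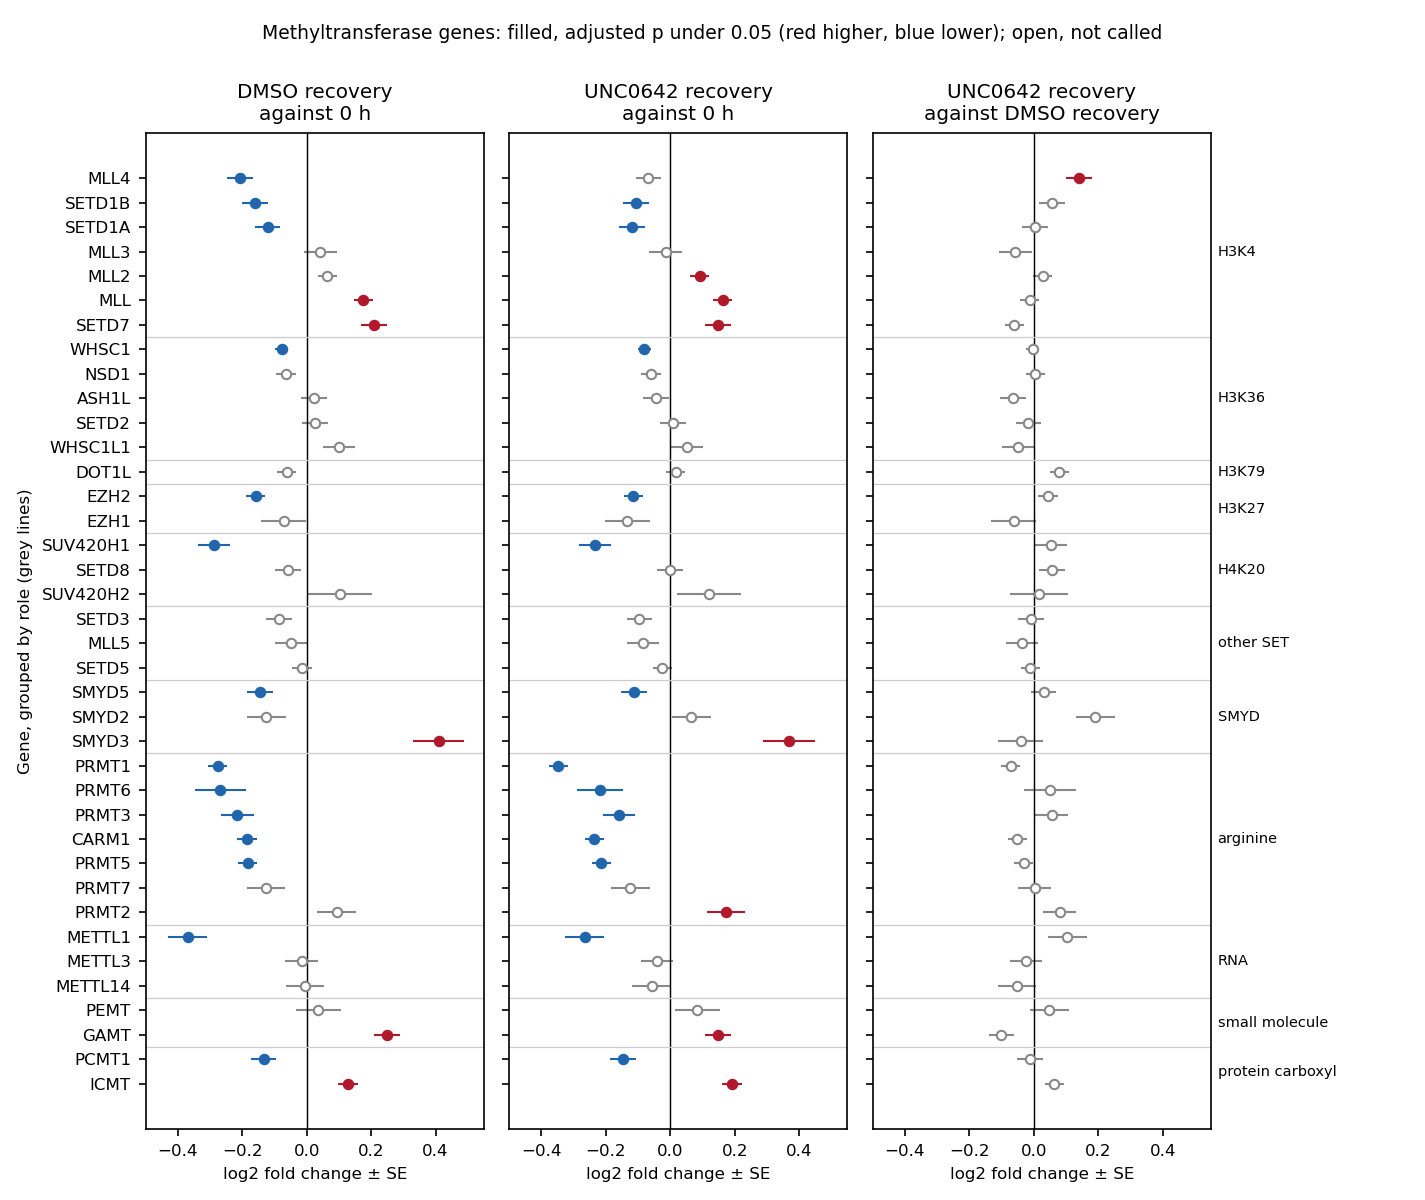
Log2 fold change with its standard error (edgeR) of each of the 38 genes, grouped by role, for the 3 comparisons; filled points have an adjusted p under 0.05 (red higher, blue lower) and open points were not called. In the first 2 panels 5 of 7 arginine methyltransferase genes are filled blue, and in the last panel MLL4 alone is filled.

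Of the 7 genes for arginine methyltransferases, 5 fell after DMSO recovery and the same 5 after UNC0642 recovery: PRMT1, PRMT3, CARM1, PRMT5 and PRMT6. Of all tested genes, 21.7% and 23.6% were called lower. PRMT1 stood at 501, 469, 468 and 466 CPM in the 4 libraries of 0 h. It stood at 398, 388, 395 and 392 CPM after DMSO recovery and at 368, 365, 380 and 384 CPM after UNC0642 recovery. Every recovery library lay below every 0 h library, and every UNC0642 library below every DMSO library. The log2 fold change was -0.28 ± 0.03 (SE) after DMSO (adjusted p = 1.37e-10) and -0.35 ± 0.03 after UNC0642 recovery (adjusted p = 5.85e-13), and the difference between the latter 2 groups was -0.07 ± 0.03 (adjusted p = 0.109).

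PRMT5 stood at 319, 323, 315 and 294 CPM at 0 h. It stood at 272, 282, 273 and 276 CPM after DMSO recovery and at 270, 267, 265 and 277 CPM after UNC0642 recovery. Both recovery groups lay below all 0 h libraries and overlapped each other. Its log2 fold changes were -0.18 ± 0.03 (adjusted p = 2.13e-06) and -0.21 ± 0.03 (adjusted p = 1.13e-07). The call after DMSO recovery was lost without the 6 libraries with COL1A2 (log2 fold change -0.09, adjusted p = 0.119).

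PRMT5 acts with WDR77 (MEP50) in a complex that recruits substrates through adaptors, and the 4 genes listed for that complex fell in both comparisons. Lower calls covered 21.7% and 23.6% of all tested genes. This and the later partner lists were chosen with earlier results of these data known, so shares called within them only describe the lists. CLNS1A (pICln), the adaptor for Sm proteins of the spliceosome, fell the most, from 116, 114, 119 and 113 CPM to 88, 83.4, 87.9 and 89.1 CPM after DMSO recovery and 91.4, 84.1, 85.9 and 83.8 CPM after UNC0642 recovery. Its log2 fold changes were -0.41 ± 0.04 (adjusted p = 5.23e-11) and -0.42 ± 0.04 (adjusted p = 1.8e-11). RIOK1, the alternative adaptor, fell by 0.40 and 0.33 on the log2 scale. WDR77 fell by 0.18 and 0.20 and the histone adaptor COPRS (C17orf79) by 0.20 and 0.24. Of these 4 genes, 0 were called between UNC0642 and DMSO recovery, with log2 differences of -0.04 to 0.08.

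CARM1 (PRMT4), a coactivator of nuclear receptors that methylates histone H3 and splicing factors, stood at 196, 198, 200 and 193 CPM at 0 h. It stood at 168, 174, 177 and 173 CPM after DMSO recovery and at 168, 167, 164 and 171 CPM after UNC0642 recovery. The recovery groups overlapped each other and lay below 0 h. CARM1 differed on the log2 scale by -0.18 ± 0.03 (adjusted p = 2.25e-06) and -0.24 ± 0.03 (adjusted p = 2.27e-08).

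PRMT3, which methylates the ribosomal protein RPS2, stood at 47.4, 52.3, 52.6 and 50.1 CPM at 0 h, at 43.8, 44.4, 42 and 44 CPM after DMSO recovery and at 44.7, 45.5, 45.8 and 45.1 CPM after UNC0642 recovery. All 8 recovery libraries lay below the 4 of 0 h. Its log2 fold changes were -0.21 ± 0.05 (adjusted p = 0.000293) and -0.16 ± 0.05 (adjusted p = 0.00464). Without the 6 libraries with COL1A2 the values were unchanged at -0.21 and -0.16 but were not called (adjusted p = 0.0586 and 0.195). In all, 1 of 29 alternatives ended the first call and 3 the second.

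PRMT6, which methylates arginine 2 of histone H3, was the lowest of the family. It stood at 18.7, 20, 18 and 17.6 CPM at 0 h, at 15.8, 15.2, 16.5 and 14.5 CPM after DMSO recovery and at 16.8, 14.3, 15.4 and 17.4 CPM after UNC0642 recovery. Both recovery groups lay below 0 h, UNC0642 recovery by a margin smaller than its own spread. PRMT6 differed by -0.27 ± 0.08 (adjusted p = 0.00431) and -0.22 ± 0.07 (adjusted p = 0.0168) on the log2 scale. Of 29 alternatives, 2 ended the first call and 7 the second, among them leaving out 0 h 2 (adjusted p = 0.079) or UNC0642 recovery 2 (adjusted p = 0.0757).

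PRMT7, which makes monomethylarginine, stood at -0.13 (adjusted p = 0.0631) and -0.12 (adjusted p = 0.0633) and was not called. It stood at 35.5, 35.8, 37.7 and 35.3 CPM at 0 h, 32.2, 32.6, 34.1 and 33.1 CPM after DMSO recovery and 36.2, 32.7, 30.3 and 33 CPM after UNC0642 recovery, so the DMSO libraries lay below all of 0 h and the first UNC0642 library lay within the 0 h range. Without that library (adjusted p = 0.0489 and 0.013), or with the trend with gene length removed by least squares (described below, -0.17 in both, adjusted p = 0.0111 and 0.00945), both PRMT7 comparisons with 0 h were called. PRMT2, a weakly active member, rose after UNC0642 recovery (log2 fold change 0.17 ± 0.06, adjusted p = 0.0119) with overlapping groups, and stood at 0.09 after DMSO recovery (adjusted p = 0.188). Its rise was lost without 0 h 3 (adjusted p = 0.074) or without UNC0642 recovery 3 (adjusted p = 0.062). The library 0 h 3 was the lowest at 39 CPM, beside 44.1 to 45.1 CPM in the other 0 h libraries. The rise of PRMT2 was also lost within the long-gap libraries. Without the 6 libraries with COL1A2 its log2 fold change after UNC0642 recovery was 0.06. Over the 7 genes the median log2 fold change was -0.18 after DMSO and -0.21 after UNC0642 recovery.

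**Figure D3:**
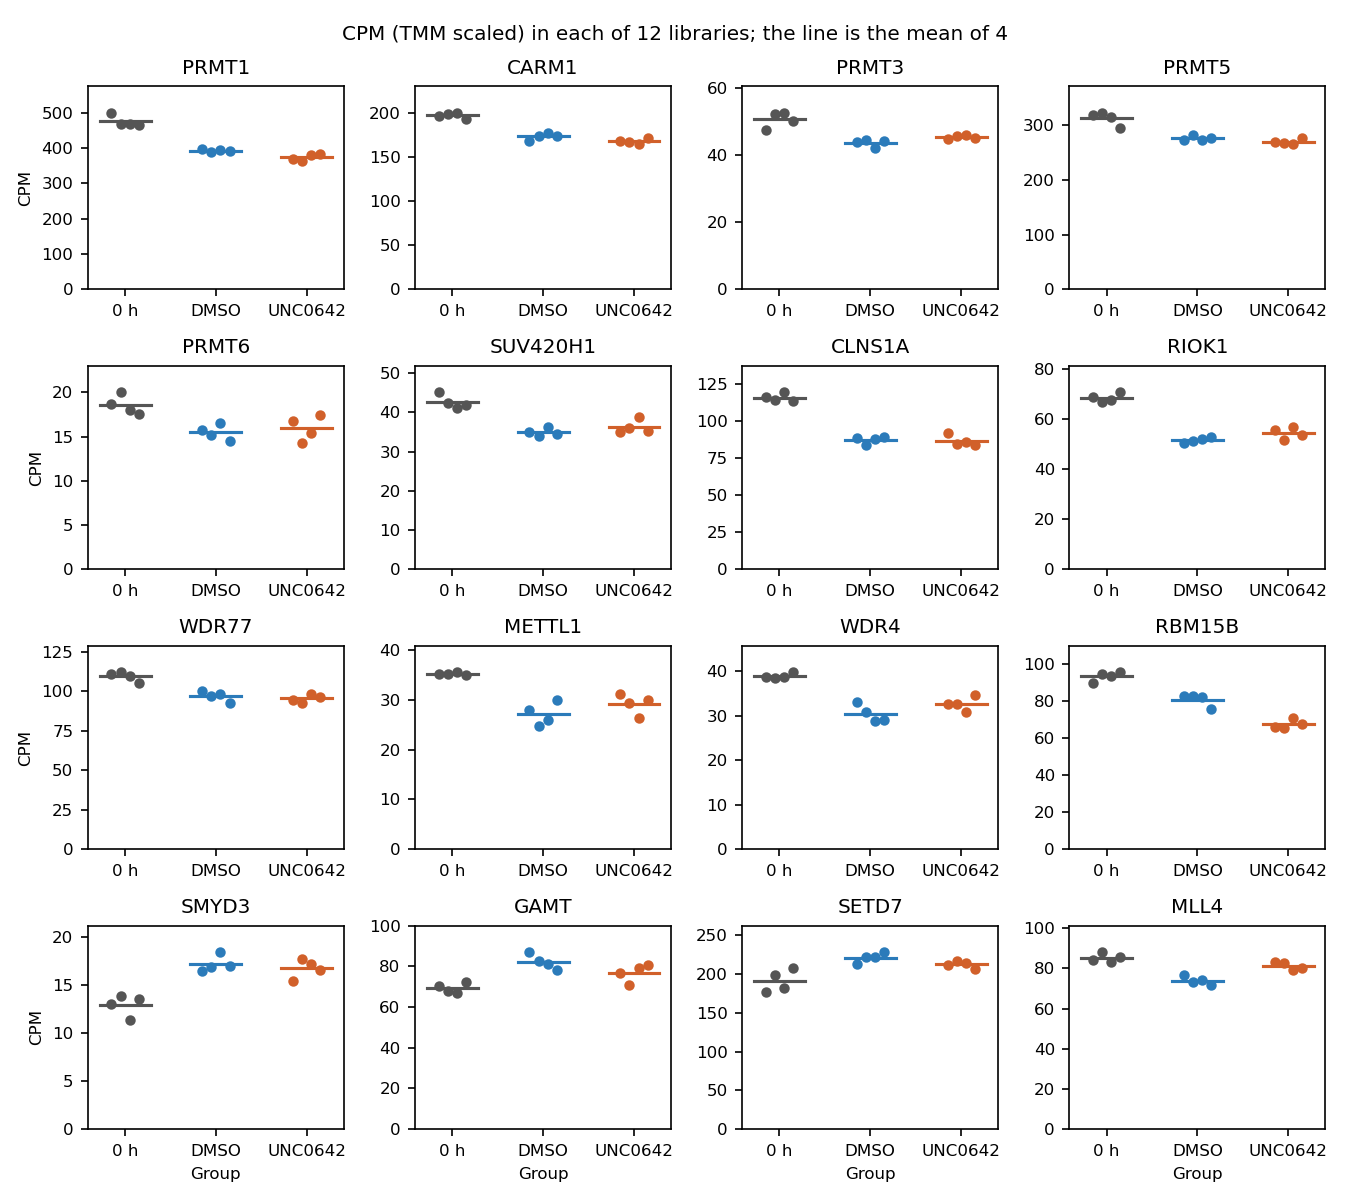
CPM (TMM scaled, axes from 0) of 16 genes in each of 12 libraries, with the mean of 4 as a line: the members with the larger changes and partners of PRMT5, METTL1 and METTL3. PRMT1, CLNS1A and RIOK1 show all 8 recovery libraries below the 4 of 0 h, and SMYD3 shows all 8 above.

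Of the 3 genes for RNA methyltransferases, METTL1, which places N7-methylguanosine in tRNA, fell, and both catalytic-core genes of N6-methyladenosine in mRNA, METTL3 and METTL14, were not called. METTL1 stood at 35.1, 35.1, 35.5 and 34.9 CPM at 0 h. It stood at 27.9, 24.8, 25.9 and 29.9 CPM after DMSO recovery and at 31.2, 29.4, 26.4 and 29.9 CPM after UNC0642 recovery. The 0 h libraries lay close together and above all others. The log2 fold changes were -0.37 ± 0.06 (adjusted p = 7.29e-06), the largest fall among the 38 genes in that comparison, and -0.27 ± 0.06 (adjusted p = 0.000442). The second call was lost within the short-gap libraries and without the 6 libraries with COL1A2 (-0.21, adjusted p = 0.169).

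WDR4, the non-catalytic partner of METTL1, fell from 38.6, 38.4, 38.6 and 39.7 CPM to 33, 30.8, 28.7 and 28.9 CPM after DMSO and 32.5, 32.7, 30.8 and 34.6 CPM after UNC0642 recovery. WDR4 differed on the log2 scale by -0.35 ± 0.06 (adjusted p = 3.15e-06) and -0.25 ± 0.05 (adjusted p = 0.000315). TRMT112, a partner of several RNA and protein methyltransferases, fell by 0.22 and 0.20 on the log2 scale (adjusted p = 1.24e-06 and 7.71e-06).

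METTL3 stood at 58.9, 59.1, 58.4 and 55.6 CPM at 0 h, 62.9, 55.5, 53.5 and 57.5 CPM after DMSO and 59.2, 54.5, 54.5 and 57.3 CPM after UNC0642 recovery, with all groups overlapping. Its log2 fold changes were -0.02 and -0.04, and those of METTL14 were 0.00 and -0.06. Among 13 genes for other subunits of that writer, erasers and readers, 1 rose and 7 fell after DMSO recovery. After UNC0642 recovery, 0 rose and 7 fell. Calls covered 61.5% and 53.8% of the 13, beside 44.1% and 47% of all tested genes. WTAP, the subunit that brings the core to nuclear speckles, fell by 0.34 and 0.31 (adjusted p = 2.16e-08 and 7.51e-08). RBM15B, an RNA-binding subunit, fell by 0.21 (adjusted p = 5.43e-05) and 0.47 (adjusted p = 1.62e-11). RBM15B was also the only one of the 13 called between UNC0642 and DMSO recovery, with 65.8, 65.4, 70.8 and 67.5 CPM against 82.4, 82.8, 81.9 and 75.7 CPM. The groups did not overlap, and the log2 difference was -0.26 ± 0.04 (adjusted p = 3.33e-05).

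The SMYD genes encode lysine methyltransferases with a SET domain split by a MYND zinc finger. SMYD3, which methylates MAP3K2 and histones and is expressed in many colorectal cancers, had the largest rise of the 38 genes. It stood at 13, 13.8, 11.4 and 13.5 CPM at 0 h, at 16.4, 16.9, 18.4 and 17 CPM after DMSO recovery and at 15.4, 17.7, 17.2 and 16.6 CPM after UNC0642 recovery. All 8 recovery libraries lay above the 4 of 0 h, and the recovery groups overlapped. SMYD3 differed on the log2 scale by 0.41 ± 0.08 (adjusted p = 6.05e-05) and 0.37 ± 0.08 (adjusted p = 0.000212), the latter lost without the 6 libraries with COL1A2 (0.29, adjusted p = 0.148).

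SMYD5 moved the other way, at -0.14 (adjusted p = 0.00653) after DMSO and -0.11 (adjusted p = 0.0279) after UNC0642 recovery. Of 29 alternatives 5 ended the first call (highest adjusted p = 0.482) and 9 the second. The second was lost without 0 h 2 (adjusted p = 0.109), UNC0642 recovery 2 (adjusted p = 0.0868) or UNC0642 recovery 4 (adjusted p = 0.0674). SMYD2, which methylates p53 and HSP90, stood at 26.1, 27.1, 25 and 27.1 CPM at 0 h, 24.2, 21.6, 25.5 and 25.2 CPM after DMSO and 27.7, 29, 24.9 and 28.7 CPM after UNC0642 recovery. It had the largest difference between UNC0642 and DMSO recovery, 0.19 ± 0.06, which was not called (adjusted p = 0.0732), and 1 UNC0642 library lay within the DMSO range. Without that library, UNC0642 recovery 3, it was called (0.24, adjusted p = 0.0315).

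Of the 7 genes for enzymes of H3K4, a mark of promoters and enhancers, 2 rose and 3 fell after DMSO recovery. After UNC0642 recovery, 3 rose and 2 fell. In each comparison 71.4% of the 7 were called, beside 44.1% and 47% of all tested genes. MLL4 (KMT2B), which acts at promoters with menin, fell after DMSO recovery and was not called after UNC0642 recovery. It stood at 84.4, 88, 83.2 and 85.5 CPM at 0 h, at 76.8, 73, 74.4 and 71.5 CPM after DMSO and at 83.4, 82.7, 79.1 and 80.4 CPM after UNC0642 recovery. The DMSO libraries lay below all 8 others, and the UNC0642 libraries overlapped 0 h. The log2 fold changes against 0 h were -0.21 ± 0.04 (adjusted p = 3.53e-05) and -0.07 (adjusted p = 0.137), the first lost within the short-gap libraries (-0.14, adjusted p = 0.145). With the trend with gene length removed by least squares or with the median kept (both described below), MLL4 was also called lower after UNC0642 recovery, at -0.19 (adjusted p = 9.13e-05) and -0.13 (adjusted p = 0.00483).

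Set against each other directly, MLL4 was higher after UNC0642 than after DMSO recovery by 0.14 ± 0.04 on the log2 scale (adjusted p = 0.0227), higher in 4 of 4 libraries. That call was lost without DMSO recovery 2 (adjusted p = 0.0675), DMSO recovery 4 (0.101), UNC0642 recovery 1 (0.0817) or UNC0642 recovery 2 (0.0525), so the count of called genes went from 1 to 0. Within the long-gap and short-gap libraries alone the differences were 0.15 (adjusted p = 0.128) and 0.09 (adjusted p = 0.679).

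SETD7, a monomethyltransferase with many non-histone substrates, stood at 177, 199, 182 and 208 CPM at 0 h. It stood at 213, 222, 222 and 228 CPM after DMSO and at 211, 217, 214 and 207 CPM after UNC0642 recovery. The DMSO libraries lay above all of 0 h, and 1 UNC0642 library lay within the 0 h range. Its log2 fold changes were 0.21 ± 0.04 (adjusted p = 1.42e-05) and 0.15 ± 0.04 (adjusted p = 0.000946). Without the 6 libraries with COL1A2 neither was called (0.10, adjusted p = 0.114, and 0.04, adjusted p = 0.66), nor was either within the short-gap libraries (0.13 and 0.10), and the second call was also lost with the least-squares length trend removed.

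MLL (KMT2A), the founding member of the family and a target of leukaemia translocations, rose by 0.18 ± 0.03 (adjusted p = 4.54e-05) and 0.16 ± 0.03 (adjusted p = 0.000115). MLL2 (KMT2D), an enhancer enzyme, stood at 274, 281, 298 and 286 CPM at 0 h, 295, 311, 292 and 292 CPM after DMSO and 302, 301, 307 and 303 CPM after UNC0642 recovery. It was called in the latter (0.09, adjusted p = 0.00684), a call lost within the short-gap libraries (0.05) and without the 6 libraries with COL1A2 (0.07, adjusted p = 0.305). The DMSO difference of 0.06 was not called (adjusted p = 0.0581), but 10 of 29 alternatives called it higher, among them leaving out 0 h 3 (adjusted p = 0.0172), DMSO recovery 1 (0.0476) or DMSO recovery 4 (0.0483). The rises of MLL and MLL2, whose transcripts are among the longest measured, did not hold once the trend with gene length was removed, as given below. The first MLL call was also lost within the short-gap libraries (0.08, adjusted p = 0.291). MLL3 (KMT2C) was not called, at 0.04 and -0.01, but was called lower after UNC0642 recovery with that trend removed by least squares (-0.18, adjusted p = 0.00106) or with the median kept (-0.11, adjusted p = 0.0422).

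SETD1A and SETD1B, which place the bulk of H3K4 trimethylation, were both called lower in both comparisons. SETD1A stood at -0.12 in each (adjusted p = 0.00932 and 0.00992), and the first call was lost without DMSO recovery 4 (adjusted p = 0.0516). In all, 7 of 29 alternatives ended the first call of SETD1A and 6 the second (adjusted p up to 0.45 and 0.365), both length-gap classes among them. SETD1B stood at -0.16 (adjusted p = 0.00221) and -0.11 (adjusted p = 0.038), and of 29 alternatives 3 ended the first call (to -0.05, adjusted p up to 0.656) and 13 the second (up to 0.773). Among the latter were 6 of the 12 libraries left out in turn, 0 h 3 with an adjusted p of 0.131. The other five were 0 h 1 (0.0804), 0 h 2 (0.0637) and UNC0642 recovery 1 (0.0552), 2 (0.0998) and 4 (0.0547).

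Of 14 further genes for subunits of the MLL and SETD1 complexes, 0 rose and 3 fell after DMSO recovery. After UNC0642 recovery, 1 rose and 6 fell. The shares called, 21.4% and 50%, stand beside 44.1% and 47% of all tested genes. WDR5, the subunit that holds the core together, fell by 0.21 and 0.19 (adjusted p = 3.84e-07 and 1.89e-06). PAGR1 (C16orf53), a subunit of the MLL2 and MLL3 complexes, fell by 0.26 after DMSO recovery (adjusted p = 4.22e-05). PSIP1, which tethers MLL and menin to chromatin, fell by 0.21 after UNC0642 recovery (adjusted p = 5.99e-06) and stood at -0.06 after DMSO recovery. Between UNC0642 and DMSO recovery it was the only one of the 14 called, at -0.15 ± 0.03 (adjusted p = 0.00424), with 145, 150, 139 and 133 CPM against 152, 157, 161 and 160 CPM.

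Among 9 genes for demethylases of H3K4, H3K27 and H3K36, 2 rose and 2 fell after DMSO recovery. After UNC0642 recovery, 2 rose and 4 fell. That is 44.4% and 66.7% called, beside 44.1% and 47% of all tested genes. KDM6A, called lower after UNC0642 recovery, is counted both here and among the subunits of the MLL and SETD1 complexes. KDM1A (LSD1), which removes mono- and dimethyl marks from H3K4, fell by 0.12 and 0.20 (adjusted p = 0.000199 and 5.34e-08). KDM5B, which removes H3K4 trimethylation, rose by 0.30 and 0.29 (adjusted p = 0.000873 and 0.00109), and KDM1B rose by 0.22 and 0.24 (adjusted p = 0.000889 and 0.000385).

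SUV420H1 (KMT5B), which carries monomethylated lysine 20 of histone H4 to higher states, was the called gene of its group of 3. It stood at 45.1, 42.4, 41.2 and 41.8 CPM at 0 h, at 35.1, 34, 36.4 and 34.4 CPM after DMSO and at 35.1, 36, 38.8 and 35.3 CPM after UNC0642 recovery. All 8 recovery libraries lay below the 4 of 0 h. SUV420H1 differed by -0.29 ± 0.05 (adjusted p = 2.55e-05) and -0.23 ± 0.05 (adjusted p = 0.000291) on the log2 scale, the first lost within the short-gap libraries (-0.24, adjusted p = 0.0517) and the second without the 6 libraries with COL1A2 (-0.24, adjusted p = 0.062).

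SETD8 (KMT5A), the monomethylating enzyme of the same lysine, stood at 86.6, 87.2, 86.6 and 87.2 CPM at 0 h, 85.4, 83.7, 80 and 84.7 CPM after DMSO and 87.7, 85.6, 88.9 and 85.2 CPM after UNC0642 recovery. The DMSO libraries lay below 0 h, by a log2 fold change of -0.06 that was not called, and UNC0642 recovery overlapped both. SUV420H2 (KMT5C), the paralog of SUV420H1, was not called, at 0.10 and 0.12, with single libraries between 8.76 and 12.1 CPM.

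EZH2, the catalytic subunit of Polycomb repressive complex 2 (PRC2), which methylates H3K27, fell. It stood at 110, 113, 112 and 113 CPM at 0 h, 101, 96.8, 103 and 100 CPM after DMSO and 104, 101, 106 and 102 CPM after UNC0642 recovery. Both recovery groups lay below 0 h and overlapped each other. EZH2 differed by -0.16 ± 0.03 (adjusted p = 0.000214) and -0.11 ± 0.03 (adjusted p = 0.00475). The first was unchanged at -0.16 within the short-gap libraries, with 1 DMSO library, but was not called there (adjusted p = 0.0574), and the second call was lost under 5 of 29 alternatives (up to 0.168). EZH1, its less active paralog, was not called, at -0.07 and -0.13.

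Of 10 other PRC2 genes, 2 rose and 6 fell after DMSO recovery and 1 rose and 5 fell after UNC0642 recovery. Called genes made up 80% and 60% of the 10, beside 44.1% and 47% of all tested genes. Of the 2 that rose, 1 was called without 0 h 2 or DMSO recovery 2, and without UNC0642 recovery 2 the 1 that rose became 2. SUZ12, a core subunit, fell by 0.15 and 0.20 (adjusted p = 0.00292 and 0.000125), and PHF19, which guides the complex to CpG islands, by 0.22 and 0.11 (adjusted p = 4.11e-05 and 0.0331). RBBP4, a histone chaperone shared with other complexes, rose, from 289, 284, 279 and 275 CPM to 347, 355, 354 and 352 CPM after DMSO and 336, 337, 326 and 328 CPM after UNC0642 recovery. RBBP4 rose on the log2 scale by 0.32 ± 0.02 (adjusted p = 2.15e-12) and 0.24 ± 0.02 (adjusted p = 1.6e-09). Between UNC0642 and DMSO recovery it was lower by -0.09 ± 0.02 (adjusted p = 0.0351), a call that was lost, leaving 0 of the 10 genes lower, without any 1 of DMSO recovery 2, 3 or 4 or UNC0642 recovery 1, 3 or 4.

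Of the 5 genes for H3K36 methyltransferases, 1 fell and 4 were not called in each comparison with 0 h. This share of 20% stands beside 44.1% and 47% of all tested genes. WHSC1 (NSD2), which makes dimethylated H3K36, fell by 0.08 in both comparisons (adjusted p = 0.008 and 0.00504). It stood at 328, 326, 332 and 331 CPM at 0 h, 313, 316, 307 and 312 CPM after DMSO and 309, 315, 312 and 309 CPM after UNC0642 recovery, so both recovery groups lay below 0 h by a narrow margin. Of 29 alternatives, 6 ended the first call and 5 the second (adjusted p up to 0.512 and 0.533). NSD1, WHSC1L1 (NSD3), ASH1L and SETD2, the trimethylating enzyme, were not called, with log2 fold changes of -0.06 to 0.10. These values depend on the trend with gene length: with it removed by least squares or with the median kept, WHSC1 stood at -0.21 and -0.16 after DMSO recovery. NSD1 was then called lower after DMSO recovery (-0.23, adjusted p = 2.12e-07, and -0.18, adjusted p = 1.97e-05) and after UNC0642 recovery (-0.21, adjusted p = 1.6e-06, and -0.14, adjusted p = 0.000384). ASH1L was called lower after UNC0642 recovery (-0.19, adjusted p = 5.04e-05, and -0.12, adjusted p = 0.00551). WHSC1L1 after DMSO recovery was called higher under 3 of 29 alternatives. SETD2 stood at 97.5, 102, 97.9 and 96.4 CPM at 0 h, 97.2, 102, 94.7 and 107 CPM after DMSO and 106, 94.1, 99.9 and 96.3 CPM after UNC0642 recovery, with all groups overlapping.

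DOT1L, which methylates H3K79 during transcription elongation, was not called, at -0.06 (adjusted p = 0.12) and 0.02, and the first was called without 0 h 1 (adjusted p = 0.0312) and with the length trend removed by least squares (-0.19, adjusted p = 2.94e-06) or with the median kept (-0.14, adjusted p = 0.000261). It stood at 122, 125, 125 and 123 CPM after DMSO and at 131, 133, 131 and 127 CPM after UNC0642 recovery. These groups did not overlap, but the log2 difference of 0.08 ± 0.03 was not called (adjusted p = 0.173). Of 6 genes for its partners, 2 rose (MLLT6 and AFF1) and 1 fell (MLLT10) in both comparisons with 0 h. Thus 50% of the 6 were called in both, near the 44.1% and 47% of all tested genes.

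Further SET-domain genes, SETD3 (an actin histidine methyltransferase), SETD5 and MLL5 (KMT2E), were not called, with log2 fold changes of -0.10 to -0.01. SETD5 stood at 158, 160, 159 and 160 CPM at 0 h, 155, 162, 157 and 158 CPM after DMSO and 159, 161, 154 and 153 CPM after UNC0642 recovery. The groups overlapped. SETD3 after UNC0642 recovery, at -0.10, was called without 0 h 1 (adjusted p = 0.0322) or UNC0642 recovery 1 (adjusted p = 0.0165). With the length trend removed by least squares, SETD5 (-0.14, adjusted p = 0.000106, and -0.13, adjusted p = 0.000125) and MLL5 (-0.17, adjusted p = 0.00469, and -0.19, adjusted p = 0.00133) were called lower in both comparisons with 0 h. With the median kept both were also called, SETD5 at -0.09 and -0.08 and MLL5 at -0.12 and -0.14. SETD3 was called lower in both comparisons with the least-squares trend removed (-0.14, adjusted p = 0.00598, after DMSO recovery). With the median kept SETD3 was called only after UNC0642 recovery.

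Among enzymes of small molecules, GAMT, a large user of SAM in the body, rose. It stood at 70.3, 67.9, 66.8 and 72.6 CPM at 0 h, at 87, 82.9, 81.4 and 78.4 CPM after DMSO and at 76.7, 70.8, 79.3 and 80.5 CPM after UNC0642 recovery. The DMSO libraries lay above all of 0 h, and 1 UNC0642 library lay within the 0 h range. GAMT rose on the log2 scale by 0.25 ± 0.04 (adjusted p = 2.01e-05) and 0.15 ± 0.04 (adjusted p = 0.00589), and neither was called without the 6 libraries with COL1A2, with 1 library at 0 h (0.15, adjusted p = 0.123, and 0.02, adjusted p = 0.89). The second was also not called within the long-gap libraries (0.12, adjusted p = 0.113). PEMT, which makes phosphatidylcholine from phosphatidylethanolamine, was not called, at 0.04 and 0.08.

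Both enzymes of protein carboxyl groups were called, in opposite directions. ICMT, which caps prenylated proteins such as RAS, rose by 0.13 and 0.19 (adjusted p = 0.000335 and 8.71e-07), from 169 to 173 CPM at 0 h to 182 to 190 CPM after DMSO and 191 to 199 CPM after UNC0642 recovery. The first call was lost within the short-gap libraries (0.10, adjusted p = 0.126), with the least-squares length trend removed (0.03, adjusted p = 0.363) and without the 6 libraries with COL1A2 (0.11, adjusted p = 0.112). PCMT1, which repairs isoaspartyl residues, was lower by -0.13 and -0.15 (adjusted p = 0.00476 and 0.00208). Its DMSO libraries of 108, 94.6, 99.5 and 95.9 CPM overlapped the 106 to 113 CPM of 0 h, and 4 of 29 alternatives ended that call (adjusted p up to 0.595), 1 the other.

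Of 6 genes for SAM supply and removal of S-adenosylhomocysteine, 2 rose and 3 fell after DMSO recovery. After UNC0642 recovery, 2 rose and 4 fell. The called shares were 83.3% and 100%, beside 44.1% and 47% of all tested genes. MAT2A, the SAM synthetase of this tissue, fell by 0.24 in both (adjusted p = 1.21e-09 and 5.74e-10). AHCY, which hydrolyses S-adenosylhomocysteine, fell by 0.28 and 0.33 (adjusted p = 9.38e-11 and 1.47e-12). AHCYL1, a related protein without that activity, rose by 0.27 and 0.28 (adjusted p = 2.66e-08 and 1.05e-08).

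Over all genes, the log2 fold change after DMSO recovery rose with gene length: the median was -0.08 in the tenth of genes with the shortest transcripts (median 948 bases) and 0.09 in the tenth with the longest (7921 bases). Spearman's rho across genes was 0.21 for all 12741 and 0.15 for the 38, and 0.16 and 0.13 after UNC0642 recovery, given as descriptions since genes are not replicates. The median length of the 38 genes was 2919 bases, beside 2946 for all. Of 10 classes of length over all genes, the longest held MLL, MLL2, MLL3, MLL4, MLL5, SETD1B, SETD2, SETD5, SETD7, NSD1, WHSC1, ASH1L and DOT1L. The shortest held PEMT and GAMT. The similar medians therefore hide a surplus of long genes among the 38. Removing the trend with a loess curve that keeps the median of all genes at 0.00, an alternative chosen after the data were seen, left 4 of the 38 higher and 20 lower after DMSO recovery and 6 higher and 20 lower after UNC0642 recovery. Over all genes, 46.2% and 47.1% of the calls under that curve were higher. The share of all tested genes called under it is not given here. MLL (0.04, adjusted p = 0.28, and 0.07, adjusted p = 0.0654) and MLL2 (-0.08 and -0.01) then no longer rose. Between UNC0642 and DMSO recovery, that curve left MLL4 (0.16) and DOT1L (0.10) higher and PRMT1 (-0.08, adjusted p = 0.0424) lower.

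**Figure D4:**
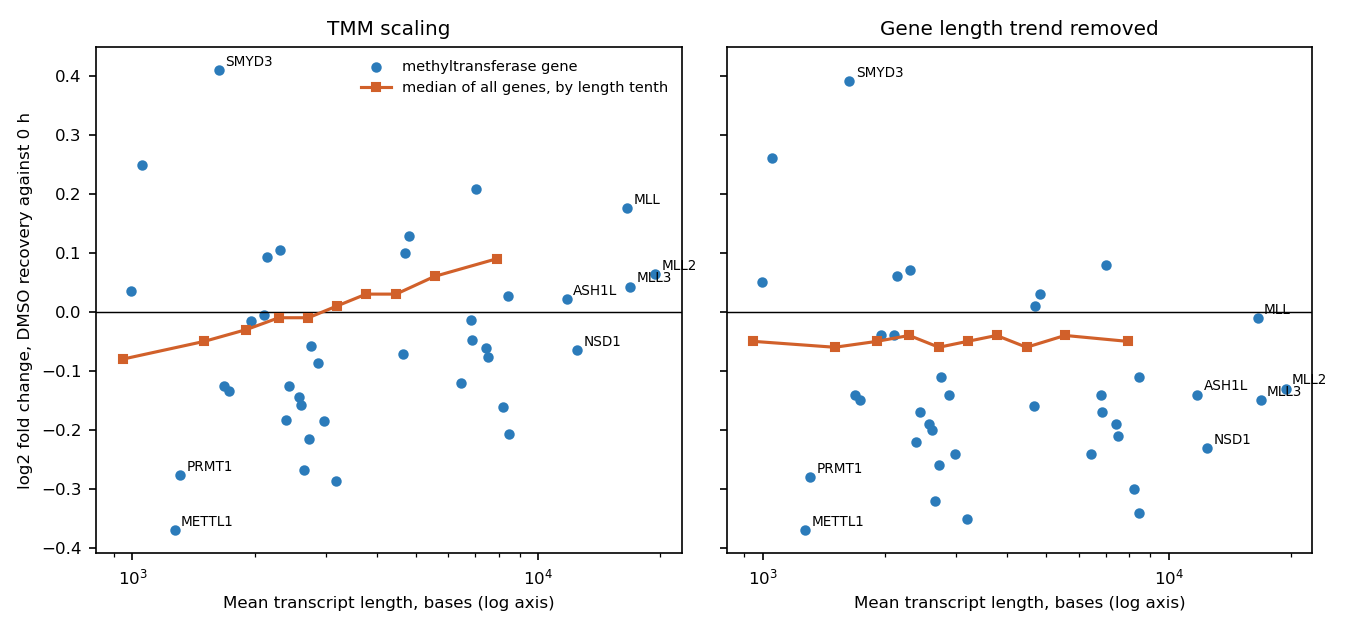
Log2 fold change of DMSO recovery against 0 h by mean transcript length (log axis) for the 38 genes (points), with the median of all tested genes in 10 classes of length (squares), before and after a least-squares loess trend was removed, which also moved the median of all genes to -0.05. MLL, MLL2, MLL3, ASH1L and SETD2 move from above to below 0, and PRMT1, METTL1 and SMYD3 stay in place.

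Promoter sequence, 250 bases before the start, was found in RefSeq (GRCh38.p14) for 33 of the 38 genes, and was not read on hg18, the build of the files. Of these, 9 (27.3%) held the letters CCAAT on either strand, beside 33.0% of 27305 promoters of that length, and 6 (18.2%) held the NRF1 motif, beside 5.53%. The E-box CACGTG was found in 3 (9.09%, all 6.49%), the ETS motif CCGGAAG in 4 (12.1%, all 8.82%) and the cAMP response element TGACGTCA in 0 (all 1.77%), each on both strands. The median GC content was 68.8%, beside 58.0% for all. The promoters of the most abundant pair, PRMT1 (chr19:49677021-49677270, plus strand) and PRMT5 (chr14:22929377-22929626, minus strand), and of SMYD3, which rose the most (chr1:246507280-246507529, minus strand), are given 5′ to 3′ in the direction of the gene. Capitals mark CCAAT, or its reverse complement ATTGG, in the first pair and the NRF1 motif in SMYD3.
PRMT1: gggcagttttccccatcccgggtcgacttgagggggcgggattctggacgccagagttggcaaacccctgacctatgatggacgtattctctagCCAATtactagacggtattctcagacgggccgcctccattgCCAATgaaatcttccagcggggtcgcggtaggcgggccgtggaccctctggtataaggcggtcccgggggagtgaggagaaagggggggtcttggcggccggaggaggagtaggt
PRMT5: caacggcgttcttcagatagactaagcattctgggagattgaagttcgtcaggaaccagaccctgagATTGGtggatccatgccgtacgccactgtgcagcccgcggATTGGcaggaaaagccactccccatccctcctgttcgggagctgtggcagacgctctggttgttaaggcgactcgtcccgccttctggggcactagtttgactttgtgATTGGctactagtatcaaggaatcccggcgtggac
SMYD3: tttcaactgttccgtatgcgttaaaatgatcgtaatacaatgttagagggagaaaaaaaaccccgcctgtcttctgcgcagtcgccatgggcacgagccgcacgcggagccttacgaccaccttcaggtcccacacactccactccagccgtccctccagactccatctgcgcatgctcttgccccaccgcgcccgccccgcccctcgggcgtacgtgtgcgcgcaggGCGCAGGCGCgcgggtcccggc
PRMT1 held CCAAT at 2 places on the strand of the gene, PRMT5 held it at 3 places on the opposite strand, and SMYD3 held the NRF1 motif at 1. These matches describe letters only, since binding was not measured.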

How the data were processed

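Per the file headers, the deposited values per gene are expected counts (estimates, not always whole), FPKM and 2 kinds of length, from RSEM 1.2.4 and Bowtie on hg18, per the submitters' processing notes. The deposited TPM were not used. Which strand was read, and how overlapping genes were counted, is not given in the sources used here. Expected counts were rounded to whole numbers, filtered (filterByExpr), scaled by TMM and fitted together over 12 libraries in edgeR 4.0.16 under R 4.3.3, by the quasi-likelihood F-test with Benjamini-Hochberg adjustment over 12741 genes. Tests are two-sided. CPM are scaled by TMM factors, and standard errors are the log2 fold change over the root of F. FPKM as the authors deposited them were used to compare levels between genes. Alternatives were other scalings and filters, DESeq2 1.42.0, limma 3.58.1 (voom, and log2 FPKM with pseudocounts of 1 and 0.1), length corrections, length-gap classes, a replicate block, and each library left out. Another 2 were added after the data were seen: a length trend with the median kept, and leaving out 6 libraries with COL1A2 above 1 CPM. The members and gene lists were chosen with earlier results of these data known. Values in every library are given for members called with an absolute log2 fold change of at least 0.2 and for 1 or 2 uncalled members of a role group with the highest FPKM, with some others chosen after their values were seen. Of each partner list, up to 2 genes with the smallest p per comparison were to be named, and some others are. The scripts were tested on simulated data.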

Additional observations from a re-analysis of the deposited data

Results flagged for a closer look

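In 6 of 114 groups of 4 libraries, 1 library stood apart from the other 3 by more than 0.829 of the group's range (Dixon's test), where chance gives about 1 in 20. PRMT1 stood at 501 CPM in 0 h 1 (466 to 469 in the others), SMYD5 at 68.7 CPM in 0 h 2 (65 in the others), and in 0 h 3 ASH1L stood at 100 CPM (91 to 92 in the others) and PRMT2 at 39 CPM (44.1 to 45.1 in the others). In DMSO recovery 1, MLL stood at 136 CPM (146 to 147 in the others) and METTL14 at 30.5 CPM (27.7 to 28 in the others).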

How the results depend on the processing

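Replicate numbers did not pair the libraries: same-numbered libraries correlated by -0.1 to 0.04 in their deviations from the group means, and 0 of 12 correlated best with their own number. With a replicate block the counts of the 38 genes were 5 higher and 14 lower after DMSO recovery, 7 and 13 after UNC0642 recovery, and 1 and 0 between them, as without it. RLE factors, unrounded counts, DESeq2 and limma-voom gave the same counts.

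Values below are in the order higher and lower, and those not given stayed within 1.5 times. For the 38 genes, library totals alone gave 8 and 10 after DMSO and 7 and 5 after UNC0642 recovery. On log2 FPKM (either pseudocount) there were 8 and 9 after DMSO and 8 and 7 after UNC0642 recovery. The least-squares length trend gave 3 and 25 after DMSO, 4 and 25 after UNC0642 recovery and 1 lower between them. That trend also moved the median log2 fold change of all genes to -0.05 in both comparisons with 0 h. The length trend with the median kept gave 20 lower after UNC0642 recovery, and 2 and 1 between the recovery groups. Leaving out the 6 libraries with COL1A2 gave 2 and 7 after DMSO and 2 and 4 after UNC0642 recovery. Short-gap libraries alone (1 DMSO library, assumed to vary like the others) gave 2 and 6 after DMSO and 8 lower after UNC0642 recovery, and long-gap libraries 7 lower there. Between the recovery groups, MLL4 was not called within either class or on log2 FPKM (0 genes), and leaving out single libraries gave 0 to 2 genes higher.

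Over all genes, leaving out the COL1A2 libraries gave 1424 and 1563, 1324 and 1512, and 123 and 154, against 2851 and 2766, 2983 and 3007, and 262 and 322. Short-gap libraries gave 1348 and 1354, 1972 higher, and 57 and 68, and long-gap libraries 125 and 146 between the recovery groups. Lower genes numbered 1838 and 1959 with library totals alone, and 1698, 1885 and 201 (pseudocount 1) or 1701, 1883 and 194 (0.1) on log2 FPKM. Higher genes were 50.8% and 49.8% of calls against 0 h, and 67.5% in both with library totals alone. With the least-squares length trend removed they were 32.9% of calls in both. Left-out libraries gave 180 to 284 higher and 222 to 334 lower between the recovery groups.

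With the least-squares length trend removed, MLL lost both calls (-0.01 and 0.00), and MLL2 went from higher to lower after UNC0642 recovery (-0.08). Some values that were not called without it changed sign and were called lower. These were MLL2 (-0.13), MLL3 (-0.15) and ASH1L (-0.14) after DMSO recovery, SETD2 (-0.11 and -0.11) in both comparisons, and DOT1L (-0.10) after UNC0642 recovery. With the median kept, MLL2 (-0.08) and ASH1L (-0.09) did so after DMSO recovery. MLL2 then lost its call after UNC0642 recovery (-0.01). Of 40 calls among the 38 genes, 8 held under all 29 alternatives: PRMT1 and CARM1 in both comparisons with 0 h, METTL1 and SMYD3 after DMSO recovery, and PRMT5 and ICMT after UNC0642 recovery. Of 74 results not called, 28 were called under at least 1 alternative. Partner genes were followed under the alternatives only as counts per list, so whether each partner call holds is not given here. Among the partner lists, the gene that rose in the MLL and SETD1 complexes after UNC0642 recovery was lost without UNC0642 recovery 2 (0 of 14). The gene that rose among the m6A genes after DMSO recovery was lost without DMSO recovery 1 or 3 (0 of 13). Without 0 h 3, 1 gene of the MLL and SETD1 complexes rose after DMSO recovery. DOT1L partners gained 1 lower gene after DMSO recovery without DMSO recovery 2 (2 of 6) and between the recovery groups without UNC0642 recovery 2 (1 of 6). The causes were not tested.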
